A study of Mus musculus with 16 samples.

Results

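Cells detect foreign or misplaced nucleic acid through a small set of receptors, and 10 genes of this system are described here in mIMCD3 cells given doxycycline. They were taken by symbol from the TPM table and by the same Ensembl identifier from the count table, and all 10 were among the 13234 genes that passed the expression filter, out of 54393 in the count table. The listed symbol Mb21d1 is written Cgas in the tables and below. mIMCD3 is an established epithelial line from the mouse inner medullary collecting duct, and the animal of origin was transgenic for the virus SV40. The cells, wild type in the labels, were grown on permeable filters and then given 2 µg/mL of doxycycline (DOX), a tetracycline antibiotic, or its vehicle DMSO for 3 or 6 days. Polyadenylated RNA was sequenced from 4 libraries in each of the 4 groups. All groups are 1 cell line, and nothing in the labels says whether the replicates were separate cultures, so p-values measure only the spread between these libraries.

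By way of background, double-stranded RNA in the cytosol is bound by the helicases encoded by Ifih1 (MDA5) and Ddx58 (RIG-I), which signal through the mitochondrial adaptor Mavs, and double-stranded RNA in endosomes is bound by Tlr3. DNA in the cytosol is bound by Cgas, whose cyclic dinucleotide product activates the adaptor Tmem173 (STING). Zbp1 binds nucleic acid in the left-handed Z form. These routes meet at the kinase Tbk1 and the transcription factors Irf3 and Irf7, which switch on type I interferon genes, and Irf7 and several of the RNA sensors are themselves known to be induced by interferon.

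The sequences of 3 start regions are shown because Ifih1 and Irf7 rose at both times and the DNA sensor gene Cgas was not called at either. The capitals mark GAAANNGAA, a short form of the interferon-stimulated response element, searched on both strands. The RefSeq windows of GRCm38.p6 hold 250 bases before and 50 after each start, 8 of the 10 genes had one, and 2 of these 8, Ifih1 and Ddx58, held the motif, against 8.56% of all 32851 windows. A match is a description of letters and not evidence of a binding site. The bases before the Ifih1 start (chr2:62646256-62646505, minus strand) hold 1 match, whose first base lies 112 bases before the start and which reads on the opposite strand. Those before the Irf7 start (chr7:141266482-141266674, minus strand, up to the earliest annotated start) and the Cgas start (chr9:78443238-78443487, minus strand) hold none.
Ifih1: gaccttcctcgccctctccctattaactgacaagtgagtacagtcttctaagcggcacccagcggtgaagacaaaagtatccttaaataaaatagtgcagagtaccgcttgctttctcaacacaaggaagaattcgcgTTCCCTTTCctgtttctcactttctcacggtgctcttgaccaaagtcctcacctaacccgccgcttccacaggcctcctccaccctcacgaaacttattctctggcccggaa
Irf7: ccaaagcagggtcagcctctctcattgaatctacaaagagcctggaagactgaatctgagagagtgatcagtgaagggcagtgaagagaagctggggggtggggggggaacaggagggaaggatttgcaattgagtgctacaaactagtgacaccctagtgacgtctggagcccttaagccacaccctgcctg
Cgas: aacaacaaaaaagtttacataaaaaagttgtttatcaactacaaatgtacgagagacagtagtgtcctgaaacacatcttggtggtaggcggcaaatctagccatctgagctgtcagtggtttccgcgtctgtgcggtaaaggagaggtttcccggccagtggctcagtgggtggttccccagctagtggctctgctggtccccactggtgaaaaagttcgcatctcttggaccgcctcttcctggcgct
A second match in Ifih1 begins at base 33 of the transcript (chr2:62646206-62646235, minus strand), and the match in Ddx58 begins at base 4 and reads on the opposite strand (chr4:40239803-40239832, minus strand). Each is shown within 30 bases.
Ifih1: gagaagagaatcGAAACAGAAaccgatctg
Ddx58: ctgaggcagtTTCGATTTCctatggccagc

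Total estimated counts per library ran from 16933343 to 23960860. Library replicate 1 of the 3-day DOX group stood apart, and the number of genes called at 3 days was 1658 with it and 2297 without it. Every listed epithelial marker was detected, with summed levels of 1590 to 2756 TPM over the libraries. The 6 fibroblast markers summed to at most 1.30 TPM and the 5 endothelial markers to at most 1.46 TPM. Of 9 immune markers, 7 averaged under 1 TPM in each group, and the sum over the 9 was 24.9 to 32.9 TPM with DMSO and 10.98 to 16.7 TPM with DOX, carried by Cd68 and Csf1r, which fell at both times. Of the 7 epithelial markers, 4 fell at each time, and the part of these shifts in the results on the 10 genes was not tested. Without replicate 1 of the 3-day DOX group, 2 of the 10 genes were still called at 3 days and 5 at 6 days. In these bulk cultures, a change in RNA per cell cannot be told apart from a change in the share of cells that express a gene.

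With DMSO alone, Irf7 was the most abundant of the 10 transcripts. Levels between genes are given in TPM, which allows for transcript length, as mean ± SD over the 8 DMSO libraries of both times unless a group is named. Irf7 averaged 94.8 ± 5.67 TPM at 3 days and 87.5 ± 6.68 TPM at 6 days (SD, n = 4), and its 8 libraries lay above those of every other member. Irf3 (37.6 TPM), Ddx58 (36.2 TPM), Tbk1 (35.4 TPM) and Tmem173 (31.2 TPM) followed, and the ranges of neighbours in this order overlapped. Ifih1 (18.6 TPM), Tlr3 (15.03 TPM) and Mavs (14.997 TPM) had lower means, and the ranges of neighbours among them also overlapped. This split was not kept when counts were divided by exonic length, where Mavs (10.6 CPM per kilobase) lay above Irf3 (10.03). Zbp1 averaged 7.89 TPM and Cgas, the lowest, 5.46 TPM. The range of Zbp1 overlapped that of Cgas over the 8 DMSO libraries but not within the 3-day group, and the order of these 2 turned when counts were divided by exonic length, to 1.71 CPM per kilobase for Zbp1 and 4.25 for Cgas. The DNA sensor gene lay below each of the 3 double-stranded RNA sensor genes in mean TPM.

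**Figure D1:**
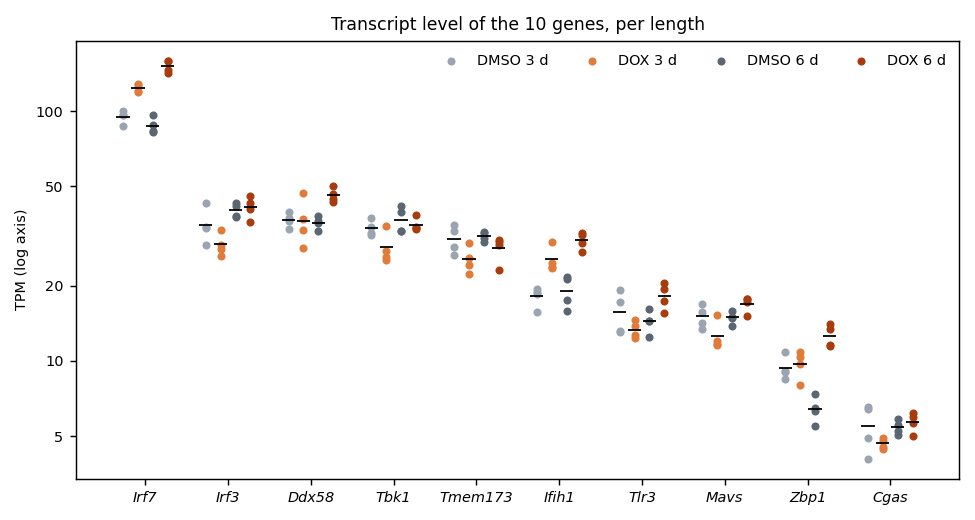
TPM (log axis) of the 10 genes, in order of their mean over the DMSO libraries; each point is 1 library, 4 per group, and the short bars are group means. Irf7 lies above the other genes in every group and Cgas has the lowest mean in every group.

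With DOX, Irf7 again had the highest mean and Cgas the lowest. Irf7 averaged 123.5 ± 4.41 TPM at 3 days and 151.3 ± 8.51 TPM at 6 days, and Cgas 4.68 ± 0.215 TPM and 5.71 ± 0.503 TPM (SD, n = 4). Ifih1 moved up, from 19.1 ± 2.87 TPM with DMSO to 30.4 ± 2.37 TPM with DOX at 6 days, where its mean passed that of Tmem173 (28.2 ± 3.37 TPM), although the libraries of these 2 genes overlapped.

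Comparing DOX with DMSO, the question was which of these genes moved with the antibiotic. At 3 days Ifih1 and Irf7 rose, and at 6 days these 2 and Ddx58, Tlr3 and Zbp1 rose. No member was called lower at either time. The test was edgeR's glmTreat, which asks for a change beyond 20%, with Benjamini-Hochberg adjustment over all tested genes and a limit of 0.05. At 3 days 2 of the 10 genes were called, where 12.5% of all tested genes were called in either direction and 5.30% were called higher. At 6 days 5 of the 10 were called, against 21.6% in either direction and 10.0% higher. The 10 genes and the lists below were chosen with earlier results of these data known. Their shares beside those of all genes are therefore a description and not an independent test. The median log2 fold change of the 10 genes was 0.06 at 3 days and 0.35 at 6 days, and that of all tested genes was 0.00 at both times. Without a fold threshold, 4 members passed at 3 days, where 45.2% of all genes did, and 6 at 6 days, where 50.6% did. The added members were Ddx58, higher (log2 0.18, edgeR adjusted p = 0.0496), and Tmem173, lower (log2 -0.16, adjusted p = 0.0193), at 3 days and Mavs, higher, at 6 days. The libraries of the 2 treatments did not overlap for 3 members at 3 days (38.6% of all genes) and for 6 at 6 days (43.0%).

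On the TPM scale the calls were fewer. Limma's treat on log2(TPM + 1) called 0 of the 10 genes at 3 days, where 5.32% of all genes were called and 0.645% were called higher. The log2 fold changes on that scale were 0.47 for Ifih1 (limma adjusted p = 0.314) and 0.38 for Irf7 (adjusted p = 0.328). At 6 days it called 3, Ifih1, Zbp1 and Irf7, where 9.92% of all genes were called and 2.85% higher, with 0.36 for Ddx58 (adjusted p = 0.841) and 0.32 for Tlr3 (adjusted p = 1.00). On that scale the median of all genes lay at -0.15 at 3 days and -0.05 at 6 days, and 85 genes were called higher and 616 lower at 3 days against 702 higher and 956 lower in counts. The 3-day log2 fold changes of Ddx58, Tlr3, Cgas and Irf3, which were not called on either scale, were above 0 in CPM and below 0 in TPM.

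**Figure D2:**
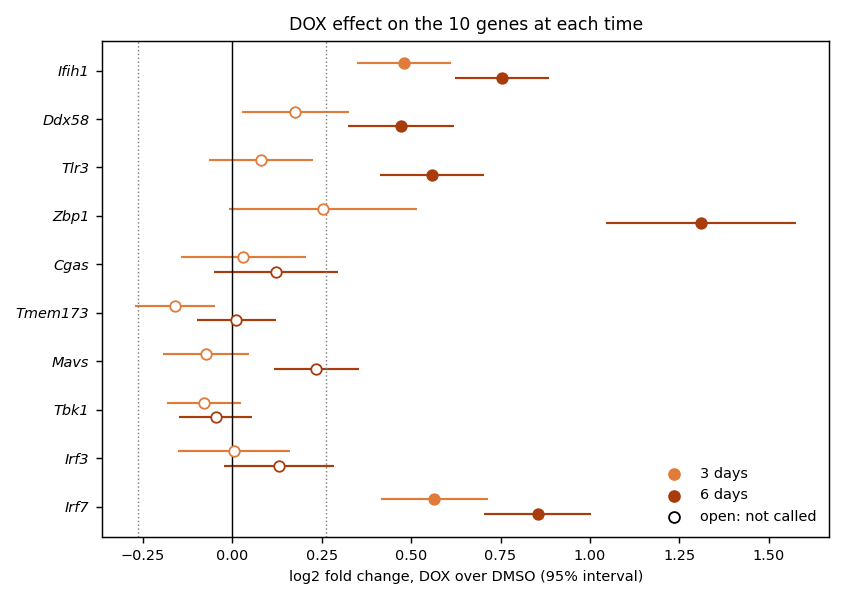
Log2 fold change of DOX over DMSO for the 10 genes at 3 and 6 days, with 95% intervals from the edgeR fit; filled points were called and dotted lines mark a 20% change. The filled points are Ifih1 and Irf7 at 3 days and Ifih1, Ddx58, Tlr3, Zbp1 and Irf7 at 6 days.

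Ifih1 (ENSMUSG00000026896, chr2:62595798-62646255, minus strand, GRCm38) encodes the helicase that recognises long double-stranded RNA. In CPM after TMM scaling, which is used for all changes, the 3-day DMSO libraries stood at 55.9, 61.5, 55.7 and 63.9 and the DOX libraries at 84.7, 85.0, 80.3 and 81.1. At 6 days the DMSO libraries stood at 56.8, 53.3, 51.2 and 61.3 and the DOX libraries at 101.9, 92.7, 92.0 and 89.1. Every DOX library lay above every DMSO library at both times. The log2 fold change was 0.48 ± 0.06 (SE, edgeR glmTreat, adjusted p = 0.00393) at 3 days and 0.75 ± 0.06 (adjusted p = 3.35e-07) at 6 days, which is 1.39-fold and 1.69-fold.

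Ddx58 (chr4:40203773-40239828, minus strand), whose product recognises short double-stranded RNA with a 5′ triphosphate, showed a different course. At 3 days its CPM was 100.6, 106.5, 99.4 and 107.0 with DMSO and 134.6, 115.9, 118.6 and 98.2 with DOX. The DOX libraries were spread widely, with the highest in replicate 1 and the lowest below all of the DMSO libraries. At 6 days the values were 97.1, 94.1, 95.7 and 101.3 with DMSO and 140.0, 122.5, 141.4 and 134.4 with DOX, and the groups did not overlap. On the log2 scale the change was 0.18 ± 0.07 (SE, not called) at 3 days and 0.47 ± 0.07 (edgeR adjusted p = 0.00607) at 6 days.

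Tlr3 (chr8:45395665-45411080, minus strand), the endosomal receptor for double-stranded RNA, rose at 6 days. Its 3-day CPM was 40.2, 37.8, 33.7 and 39.9 with DMSO and 43.0, 39.4, 40.2 and 37.6 with DOX, and these overlapped. At 6 days it was 29.2, 33.6, 32.8 and 36.8 with DMSO and 46.5, 50.4, 48.3 and 49.8 with DOX, with every DOX library above every DMSO library. The change was 0.08 ± 0.07 (log2, SE, not called) at 3 days and 0.56 ± 0.07 (edgeR adjusted p = 0.000380) at 6 days. An antisense gene, Gm45542, overlaps 381 of the 5207 exonic bases of Tlr3, and had at most 3 counts in any library.

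Zbp1 (chr2:173206612-173218923, minus strand), the Z-form nucleic acid sensor that can also start necroptosis, had the largest fold change of the 10 genes at 6 days, from a low level of 74 to 269 counts per library. At 3 days its CPM was 6.49, 7.14, 6.70 and 8.21 with DMSO and 7.66, 8.22, 7.38 and 10.98 with DOX. At 6 days it was 5.32, 5.38, 4.01 and 4.56 with DMSO and 13.3, 11.05, 12.6 and 10.996 with DOX. Only the 6-day groups were apart. The log2 fold change was 0.25 ± 0.13 (SE, edgeR adjusted p = 0.702) at 3 days and 1.31 ± 0.13 (adjusted p = 3.46e-07) at 6 days, which is 2.48-fold (95% interval 2.06 to 2.98). The DMSO level itself was lower at 6 days than at 3 days, by 0.57 ± 0.13 on the log2 scale with no overlap of libraries, although that difference was not called.

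Neither of the members on the DNA side, Cgas and Tmem173, was called at either time. Cgas (chr9:78430526-78443237, minus strand), the cytosolic DNA sensor gene, stood at 14.9, 16.3, 19.5 and 18.9 CPM with DMSO and 16.2, 19.2, 17.7 and 18.01 CPM with DOX at 3 days. At 6 days it stood at 15.8, 17.5, 18.4 and 17.5 CPM with DMSO and 18.6, 19.7, 19.6 and 17.3 CPM with DOX. The treatments overlapped at both times. The log2 fold change was 0.03 (95% interval -0.14 to 0.21) at 3 days and 0.12 (95% interval -0.05 to 0.30) at 6 days, so a rise as large as that of Ifih1 lay outside both intervals. A pseudogene, Gm8093, overlaps 201 of its 4126 exonic bases on the opposite strand, with at most 1 count in any library.

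Tmem173, the adaptor that Cgas activates through its product, stood at 42.6, 41.7, 42.2 and 44.2 CPM with DMSO and 37.7, 38.3, 37.6 and 39.3 CPM with DOX at 3 days. Every DOX library lay below every DMSO library, but the log2 difference of -0.16 ± 0.05 (SE) did not pass the test against a 20% change. At 6 days the values were 41.2, 41.4, 40.1 and 42.3 CPM with DMSO and 38.0, 42.0, 43.4 and 42.7 CPM with DOX. These overlapped, with a log2 fold change of 0.01 (95% interval -0.10 to 0.12).

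**Figure D3:**
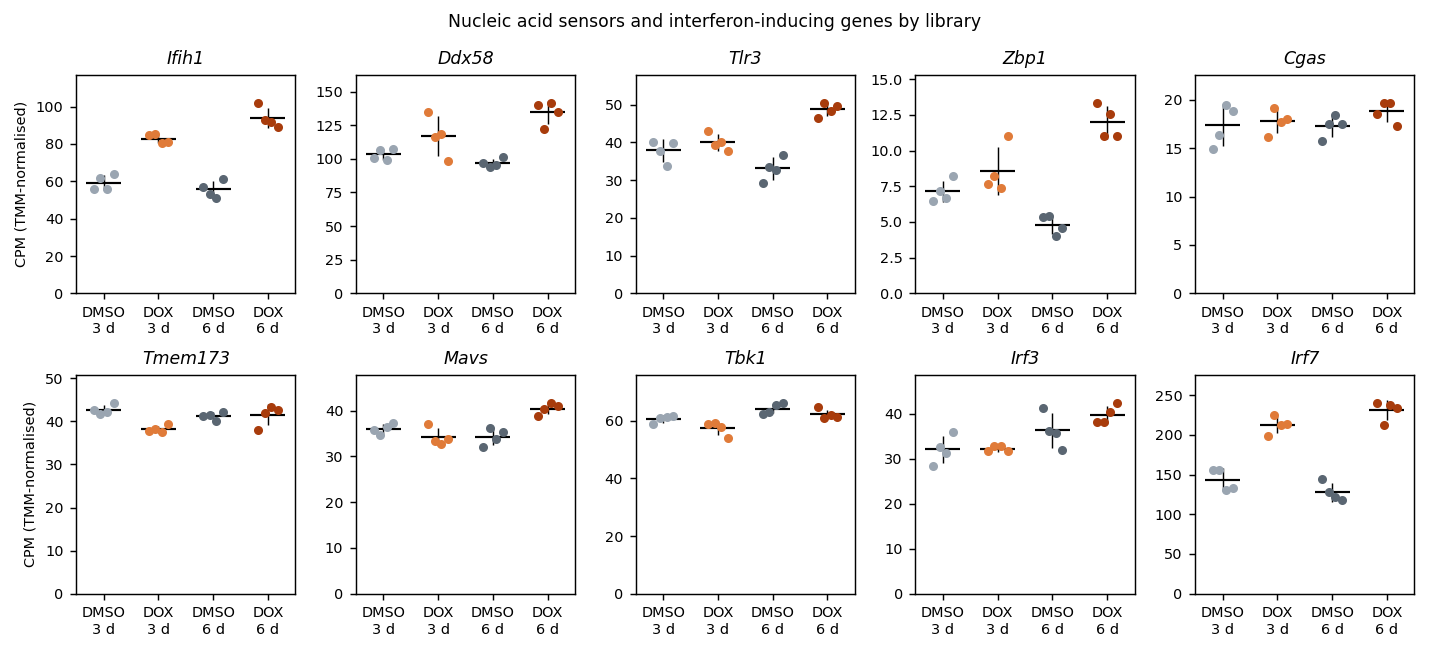
TMM-normalised CPM of each gene in the 16 libraries; points are libraries, horizontal bars are group means and vertical bars are SD (n = 4), and each axis starts at 0. For Ifih1 and Irf7 the DOX points lie above the DMSO points at both times, and for Ddx58, Tlr3, Zbp1 and Mavs at 6 days.

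Among the genes that relay the signal, the transcription factor Irf7 moved and the others were not called. Irf7 (chr7:141262706-141266481, minus strand) stood at 156.3, 155.5, 130.3 and 132.7 CPM with DMSO and 198.9, 225.1, 212.9 and 213.7 CPM with DOX at 3 days. At 6 days it stood at 144.4, 127.5, 121.5 and 117.5 CPM with DMSO and 239.7, 212.3, 237.8 and 233.8 CPM with DOX. The treatments did not overlap at either time. The log2 fold change was 0.57 ± 0.07 (SE, edgeR adjusted p = 0.000778) at 3 days and 0.85 ± 0.07 (adjusted p = 1.65e-07) at 6 days, which is 1.48-fold and 1.81-fold. The gene Phrf1 on the opposite strand shares 45 of its 3776 exonic bases, and whether the counting used strand is not given in the sources used here.

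Mavs (chr2:131234063-131248025, plus strand), the mitochondrial adaptor of Ifih1 and Ddx58, stood at 32.01, 36.2, 33.8 and 35.3 CPM with DMSO and 38.9, 40.3, 41.6 and 40.9 CPM with DOX at 6 days. The groups did not overlap, and the log2 fold change of 0.24 (95% interval 0.12 to 0.35) was below the 20% that the test asks for (edgeR adjusted p = 0.809). At 3 days Mavs ranged from 34.8 to 37.3 CPM with DMSO and from 32.8 to 37.2 CPM with DOX. The kinase gene Tbk1 (chr10:121546455-121586787, minus strand) ranged from 53.9 to 66.1 CPM over all 16 libraries, with log2 fold changes of -0.08 (95% interval -0.18 to 0.02) and -0.05 (95% interval -0.15 to 0.06) at 3 and 6 days. Irf3 (chr7:44997648-45002848, plus strand), the factor held ready in resting cells, ranged from 28.4 to 42.3 CPM, with log2 fold changes of 0.01 (95% interval -0.15 to 0.16) and 0.13 (95% interval -0.02 to 0.28). It shares 88 of 3442 exonic bases with Bcl2l12 on the other strand.

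The effect of DOX was larger at 6 than at 3 days for 5 of the 10 genes by the edgeR test of the difference, which has no fold threshold, where 17.0% of all tested genes were called. The difference of log2 fold changes was 1.06 ± 0.18 for Zbp1 (SE, adjusted p = 0.000978), 0.48 ± 0.10 for Tlr3 (adjusted p = 0.00381) and 0.31 ± 0.08 for Mavs (adjusted p = 0.0144). Those of Ifih1 (0.27 ± 0.09, adjusted p = 0.0390) and Ddx58 (0.29 ± 0.10, adjusted p = 0.0491) were close to the limit, and each call was lost in most of the fits that left out 1 library, in 10 of 16 for Ifih1 and 13 of 16 for Ddx58. The Mavs call was lost under the length and GC correction (edgeR adjusted p = 0.0742), and those of Mavs and Tlr3 under limma on TPM and with a fold threshold of 1.2. For Irf7 the difference was 0.29 ± 0.10 (adjusted p = 0.0537). Between 3 and 6 days of DMSO alone, 0 of the 10 genes were called by glmTreat, as were 0% of all genes. In DOX-treated cells 0 of the 10 were called between the times, against 3.94% of all genes.

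Each of the 3 double-stranded RNA sensor genes was set against Cgas within each library, and Mavs against Tmem173, as the log2 ratio of CPM. A ratio within a library does not depend on the scaling of libraries. Cgas was the only DNA sensor gene used, so these ratios do not stand for DNA sensing as a whole. Among 10 other tested DNA sensing genes, 4 rose and 1 fell at 6 days, and Ifi203 rose by 1.23 on the log2 scale. Ifih1 over Cgas was 1.77 ± 0.18 with DMSO and 2.22 ± 0.11 with DOX at 3 days, and 1.68 ± 0.18 and 2.31 ± 0.11 at 6 days (mean ± SD, n = 4). The ratio was higher in every DOX library than in any DMSO library at both times. Ddx58 over Cgas went from 2.57 ± 0.18 to 2.70 ± 0.26 at 3 days and from 2.48 ± 0.11 to 2.83 ± 0.14 at 6 days. Tlr3 over Cgas went from 1.12 ± 0.26 to 1.17 ± 0.17 at 3 days and from 0.93 ± 0.10 to 1.37 ± 0.10 at 6 days. Both ratios were apart at 6 days and overlapped at 3 days. The adaptors, Mavs over Tmem173, went from -0.24 ± 0.02 to -0.16 ± 0.09 at 3 days and from -0.27 ± 0.07 to -0.04 ± 0.05 at 6 days, where they were apart. In the 3-day DOX libraries this ratio was -0.02 in replicate 1 and -0.20, -0.20 and -0.22 in the others, beside -0.26 to -0.21 with DMSO. Of the 8 exact two-sided permutation tests, 5 gave p = 0.0286, the smallest that 4 against 4 allows, and an adjusted p of 0.0457 over the 8. The other 3, all at 3 days, gave adjusted p of 0.588 for Ddx58, 0.886 for Tlr3 and 0.0762 for the adaptors in exact permutation tests. With ratios of TPM instead, 0 of 8 passed, where the difference in Ifih1 over Cgas was 0.68 at 3 days and 0.61 at 6 days, against 0.45 and 0.63 in CPM (adjusted p = 0.0571 in exact tests of TPM at both times). Because p cannot be smaller than 0.0286, none of the 8 can pass unless at least 5 reach that value together. The number that passed therefore cannot tell whether the change in a single ratio was lost.

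**Figure D4:**
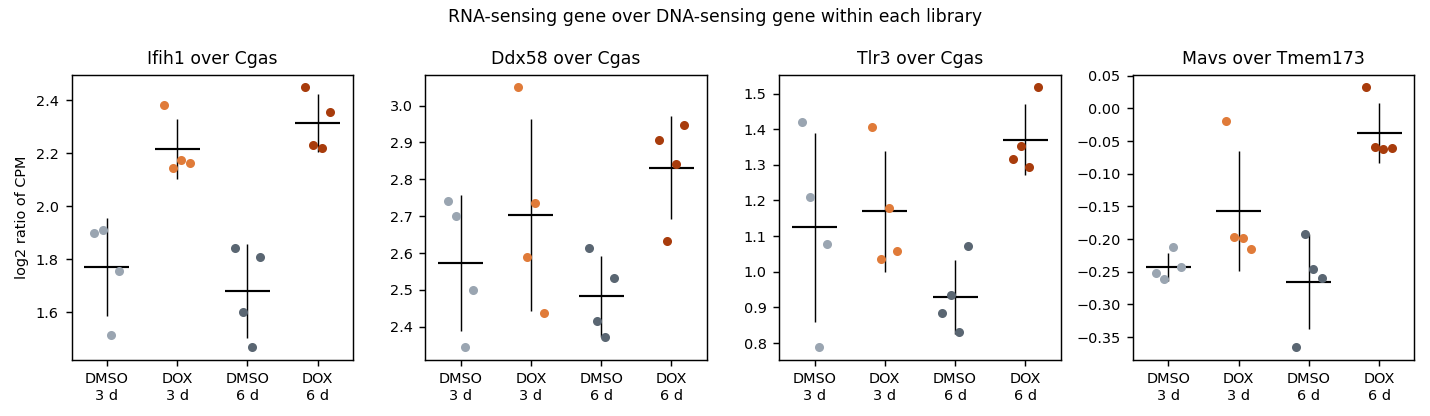
Log2 ratio of CPM in each library, of Ifih1, Ddx58 or Tlr3 over Cgas and of Mavs over Tmem173. Horizontal bars are group means and vertical bars are SD (n = 4), and the axes do not start at 0. DOX points lie above all DMSO points for Ifih1 over Cgas at both times and for the other 3 pairs at 6 days.

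The interferon genes stayed near the limit of detection. Of 20 listed, 12 had no count in any library, 7 had at most 6 counts in any library, and only Ifnb1, interferon beta, passed the filter. A count of 0 allows up to 3 counts, which is 0.125 to 0.177 CPM in these libraries, counting error only. Ifnb1 had 14, 17, 11 and 16 counts with DMSO and 18, 14, 22 and 20 with DOX at 3 days, and 19, 17, 18 and 12 with DMSO and 31, 21, 23 and 17 with DOX at 6 days. The groups overlapped at both times, and the log2 fold changes of 0.42 (95% interval -0.13 to 0.97) and 0.33 (95% interval -0.20 to 0.85) were not called. Both intervals include no change. Rises above 1.96-fold at 3 days and 1.81-fold at 6 days lay outside them, and smaller changes in Ifnb1 could not be told from none at this depth.

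Other genes of RNA sensing included several that rose. Of 19 listed, 16 were tested. At 3 days 4 rose, where 5.30% of all tested genes were called higher, and at 6 days 8 rose, where 10.0% were. None was lower at either time, and the median log2 fold change was 0.16 at 3 days and 0.42 at 6 days. The OAS enzymes, which make the messenger that activates RNase L, or their relatives gave most of these. Not all of them rose, since Oas2 (log2 fold change -0.29 at 3 days and 0.30 at 6 days) and Oas3 (-0.10 and 0.19) were not called. Oas1b had a log2 fold change of 0.84 ± 0.08 (SE, edgeR adjusted p = 5.40e-07) and Oasl2 of 0.83 ± 0.07 (adjusted p = 1.41e-07) at 6 days. Dhx58, the third helicase of the Ifih1 family, rose by 0.52 ± 0.07 at 3 days (adjusted p = 0.00235) and 0.82 ± 0.07 at 6 days (adjusted p = 2.14e-07), and Oas1g by 0.70 ± 0.08 at both. Oas1a, Oas1b and Oas1g are close paralogs, so reads may be split between them.

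Among 12 listed DNA sensing genes, 10 were tested, and 2 rose and 1 fell at 3 days, 4 rose and 1 fell at 6 days, with a median log2 fold change of 0.25 at both times. Of all tested genes, 12.5% were called at 3 days (5.30% higher) and 21.6% at 6 days (10.0% higher). The genes that rose at 6 days were Ifi203 (1.23 ± 0.11, SE on the log2 scale, edgeR adjusted p = 6.49e-08), Ifi207 (0.90 ± 0.08) and Ifi204 (0.67 ± 0.09), of the interferon-inducible p200 family whose members are near-identical in parts, and Zdhhc1 (0.91 ± 0.10). The DMSO mean of Ifi203 was 8.29 CPM at 3 days and 6.21 CPM at 6 days, without overlap of libraries, though that difference was not called. Rnf26, a ubiquitin ligase that acts on the Tmem173 protein, fell by 0.58 at 3 days and by 0.56 at 6 days. It shares 2059 of its 3641 exonic bases with the gene Gm49380 on the same strand, so reads may be split between them. Surf4, Stim1 and the other tested genes of the list were not called at either time.

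Of 13 adaptor and kinase genes of the signal relay, 1 was called at 3 days, where 12.5% of all tested genes were, namely Ikbke, a kinase related to Tbk1, which fell by 0.43 ± 0.06 (SE, edgeR adjusted p = 0.0159), and 0 at 6 days, where 21.6% of all genes were called and the list had a median log2 fold change of -0.04. Of 6 ubiquitin ligase genes, Trim25, which acts on the Ddx58 protein, rose at 6 days by 0.43 ± 0.08 (adjusted p = 0.0236), and none was called at 3 days. This 1 call in 6 genes is not above the 21.6% of all tested genes called at 6 days. Of 6 tested relatives of Irf3 and Irf7, Irf9, part of the interferon-activated ISGF3 complex, rose at 3 days (0.49 ± 0.05) and 6 days (0.55 ± 0.05), and Irf5 at 6 days (0.58 ± 0.11). These were 1 and 2 of the 6, where 12.5% and 21.6% of all tested genes were called at 3 and 6 days.

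Of 18 tested genes that restrain the system, 2 rose and 1 fell at 3 days and 4 rose and 1 fell at 6 days, counts near the 12.5% and 21.6% of all tested genes that were called. Nlrc5, better known as the activator of MHC class I genes, rose by 1.48 ± 0.14 at 6 days (SE on the log2 scale, edgeR adjusted p = 9.10e-08). Its DMSO mean was 8.14 CPM at 3 days and 5.12 CPM at 6 days, without overlap of libraries, though that difference was not called. With DOX its means were 9.63 and 14.3 CPM. Usp18, which removes ISG15 from proteins and dampens interferon signalling, rose by 0.71 ± 0.06 at 3 days and 0.66 ± 0.06 at 6 days. Pnpt1, which degrades mitochondrial RNA, rose by 0.50 ± 0.06 at both times. Tnfaip3, an inhibitor of NF-κB, fell by 0.61 at 3 days and by 0.82 at 6 days. Of 15 interferon-stimulated genes, all tested, 9 rose at 3 days and 12 at 6 days with none lower, with medians of 0.58 and 0.67. Of all tested genes, 5.30% were called higher at 3 days and 10.0% at 6 days, but the list was chosen with earlier results of these data known. Mx1, an antiviral GTPase, rose by 2.08 ± 0.29 at 6 days from 0.923 to 3.94 CPM, Rsad2 by 1.01 ± 0.10, Ifitm3 by 0.83 ± 0.08 and Ifi44 by 0.81 ± 0.07.

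**Figure D5:**
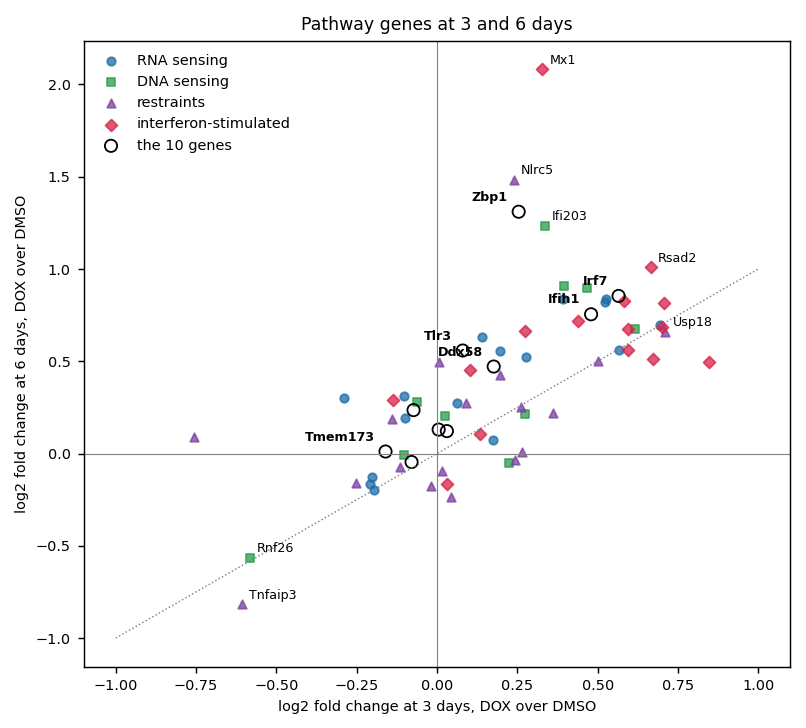
Log2 fold change of DOX over DMSO at 3 days (horizontal) and at 6 days (vertical) for the tested genes of 4 lists and the 10 genes (black rings); the dotted line marks equal change. Zbp1, Nlrc5, Ifi203 and Mx1 lie far above the dotted line, and Rnf26 and Tnfaip3 are low at both times.

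The genes whose log2 CPM ran closest to that of the 2 members called at both times were listed as a description over the 16 libraries, which share the treatment. For Ifih1 these were Kmt5a, Angel1 and Ddx60, each with a Pearson correlation of 0.972. For Irf7 they were Mta1 (0.978), Rbms2 (0.975) and Nop53 (0.972). Ddx60, a helicase gene, had log2 fold changes of 0.54 at 3 days and 0.89 at 6 days, and Kmt5a, a histone methyltransferase gene, of 0.17 and 0.25.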

How the data were processed

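The authors enriched polyadenylated RNA, made directional libraries, aligned read pairs to GRCm38.p6 with STAR and quantified them with salmon. They deposited estimated counts per gene, not normalized, and TPM per gene. Groups were read from the sample labels, and all 16 libraries were used.

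Estimated counts were rounded. A gene entered the fit if 4 or more libraries reached 1 CPM. edgeR 4.0.16 in R 4.3.3 fitted the 4 groups together by robust quasi-likelihood, with TMM factors. Treatments and times were compared by glmTreat with a fold threshold of 1.2, and the difference between times by glmQLFTest, with p adjusted by Benjamini-Hochberg over 13234 genes. The SE is the log2 fold change divided by the square root of F. Log ratios used a prior count of 2 and exact permutation tests. Positions came from GENCODE M21 and start regions from RefSeq. All 10 members were named, and from each list up to 4 called genes with the largest change at 6 days. Members and lists were chosen with earlier results of these data known. Alternatives included RLE, DESeq2 1.42.0, limma 3.58.1 on TPM, other filters, a length and GC correction and leaving out each library. The calculations were tested on simulated data.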

Additional observations from a re-analysis of the deposited data

Results flagged for a closer look

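The effect of DOX was tested for a difference between the times, and it was larger at 6 days for 5 genes. On the log2 scale the difference was 1.06 for Zbp1, 0.48 for Tlr3, 0.31 for Mavs, 0.29 for Ddx58 and 0.27 for Ifih1. The Zbp1, Tlr3 and Mavs calls held when any 1 library was left out, 16 of 16 times each, and in 11, 8 and 6 of the 11 other fits. For Zbp1 the lower DMSO level at 6 days, 4.82 CPM on average against 7.13 CPM at 3 days, enters this difference together with the DOX levels of 11.99 and 8.56 CPM. For Tlr3 the DMSO means were 33.1 CPM at 6 days and 37.9 CPM at 3 days, and the DOX means 48.8 and 40.1 CPM. In the 40 combinations of gene and group, 0 libraries stood out from the other 3 by Dixon's test.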

How the results depend on the processing

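The calls on single genes at 6 days for Ifih1, Zbp1 and Irf7 held in all 16 fits that left out a library and in all 12 others, and those for Ddx58 and Tlr3 in all but limma on TPM. At 3 days the calls for Ifih1 and Irf7 were lost under limma on TPM only. The cause of each change given here was not tested. DESeq2 called 1019 genes at 3 days and 243 between the DOX times. Limma on log2(TPM + 1) and log2(TPM + 0.1) called 701 and 909 genes at 3 days, 1307 and 1527 at 6 days, 86 and 111 between the DOX times and 659 and 631 for the difference, with 0, 3 and 2 of the 10 genes at 3 days, at 6 days and for the difference under both. Without a fold threshold 5982, 6702, 62 and 4000 genes were called at 3 days, at 6 days, between the DMSO times and between the DOX times, with 4 members at 3 days and 6 between the DOX times. With a threshold of 1.2 the difference had 183 genes and 1 member. Without the filter on low counts 6 genes were called between the DMSO times, where 0 of 13234 were called by edgeR with it, 172 at an unadjusted p under 0.05, and 0 by DESeq2.

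With the replicate number as a block, 3 members were called for the difference instead of 5, with adjusted p of 0.0522 for Ifih1 and 0.0693 for Ddx58. The numbers were not taken to pair libraries, since equally numbered libraries deviated from their group means with a mean correlation of -0.0955 (3 days) and -0.121 (6 days). With the length and GC correction 3 members were called, Zbp1, Tlr3 and Ifih1, with or without the block, and adjusted p was 0.0742 and 0.0998 for Mavs and 0.0591 and 0.0636 for Ddx58. The block changed no call on a member at 3 or 6 days. For the log ratios, 0 of 8 passed under a sign-flip test of equally numbered libraries, whose smallest p is 0.125, and 0 of 8 as ratios of TPM, where Tlr3 over Cgas at 3 days was -0.016. As ratios of TPM, Ifih1 over Cgas had an adjusted p of 0.0571 at both times in exact permutation tests. Of the 9 neighbouring pairs in the order of levels, 5 kept their order when counts were divided by exonic length, where Zbp1 and not Cgas was lowest.

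The 3-day log2 fold changes under limma with pseudocounts of 1 and 0.1 were -0.037 and -0.038 for Ddx58, -0.17 and -0.20 for Cgas, -0.20 and -0.21 for Tlr3 and -0.25 and -0.25 for Irf3, and those of Tmem173 at 6 days were -0.17 and -0.17. With 1 CPM asked of all 16 libraries, Irf3 was at -0.0072 at 3 days and Tmem173 at -0.00307 at 6 days. With the length and GC correction they were at -0.026 and -0.023, and with the block as well at -0.024 and -0.023. None of these values was called.

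Leaving out 1 library at a time gave 327 to 912 genes between the DOX times and 1370 to 3788 for the difference, both highest without DOX replicate 1 of 3 days. Members called ran from 0 to 1 between the DOX times, with Zbp1 called without DOX replicate 4 of 3 days, and from 3 to 5 for the difference. Log ratio tests passed ran from 0 to 6 of 8, with 0 when any 6-day DMSO library was left out. In those cases Ifih1 over Cgas had an adjusted p of 0.0571 at both times in exact permutation tests. The steps of these tests are too coarse to tell such a fall to 0 from a lost change. The log2 fold change ran from -0.031 to 0.086 for Cgas and from -0.046 to 0.064 for Irf3 at 3 days, and from -0.010 to 0.051 for Tmem173 at 6 days, and Tlr3 over Cgas at 3 days from -0.067 to 0.143.

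Depth limits what can be said of the interferon genes, of which 12 of 20 had no count in any library.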
